A study of Mus musculus with 6 samples.

Results

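The RNA of 36 genes was followed, genes of the mouse endoplasmic reticulum (ER) folding machinery and its stress response in large and small B16 melanomas. The genes were listed by name: 11 chaperones and their cofactors, 4 protein disulfide isomerases, 9 genes of ER-associated degradation and protein translocation, 7 sensors, transcription factors and activating proteases, and 5 targets of the integrated stress response. A gene was tested if a probe carrying its symbol was detected, at a detection p-value under 0.05, on 3 or more of the 6 arrays, and 31 of the 36 genes were, with 49 such probes. The other 5 (Canx, Dnajb11, Manf, Derl1 and Derl3) had no probe named here and were not analysed. Over the whole array 10523 genes were tested. The 36 genes were listed with earlier results of these data known, so their counts beside those of all genes are descriptions.

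B16 is a transplantable melanoma cell line derived from the C57BL/6 mouse strain, and each sample was a tumor grown in C57BL/6 mice from 400000 inoculated cells. Large tumors (70 to 80 mm2, n = 3) and small tumors (10 to 20 mm2, n = 3) were both taken on day 8 and trimmed of normal tissue, and every RNA sample was hybridised to 1 Illumina bead array. Strain, cell line, day and cell dose were thus shared by both groups, which were defined by the size the tumors had reached. The labels do not say how many mice or inoculations the replicates came from, so p-values measure only the spread between these samples.

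Proteins that enter the secretory pathway fold in the ER with the help of chaperones and of enzymes that form disulfide bonds, and those that fail are pulled back to the cytosol and degraded. When unfolded protein accumulates, the sensors ATF6, IRE1 and PERK start the unfolded protein response. ATF6 is cut by the Golgi proteases encoded by Mbtps1 and Mbtps2 and, with XBP1, raises chaperone and degradation genes, whereas PERK acts through translation and ATF4 on the integrated stress genes. Pigment cells make melanosome proteins, many of them glycosylated, that pass through the ER.

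Most of these genes had somewhat more RNA in large tumors, but few differences passed the test. Of the 31 genes tested, 28 had a positive log2 fold change (large minus small) and 3 a negative one, and their median was 0.37, against -0.00096 over all 10523 genes, of which 5252 were positive. At an adjusted p under 0.05 (limma, Benjamini-Hochberg over all genes), 2 of the 31 rose, Mbtps1 and Calr, where 0.789% of all genes rose, and 0 fell, where 1.68% of all genes fell. At an unadjusted p under 0.05, 16 were higher (12.3% of all genes) and 1 was lower (10.2% of all genes). The 3 large tumors were all above the 3 small tumors for 18 of the 31 genes (16.1% of all genes) and all below them for 1 (13.6% of all genes). In tumor tissue, fewer cells of a type and less RNA per cell cannot be told apart.

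The differences followed the genes' roles unevenly. The median log2 fold change was 0.62 for the 8 tested chaperones and cofactors, 0.46 for the 4 isomerases, 0.37 for the 7 degradation and translocation genes, 0.23 for the 7 sensors and factors, and 0.027 for the 5 integrated stress targets. These medians are descriptions, and the differences between roles were not tested. The order of the chaperone, isomerase and degradation medians depended on the processing. They were 0.48, 0.44 and 0.45 with the mean of a gene's probes, and 0.43, 0.44 and 0.36 without background correction. Without small tumor 1 they were 0.45, 0.32 and 0.34. Median scaling kept the order (0.99, 0.86 and 0.79). The sensor and integrated stress medians were below them in each of these settings. Between-array scaling matters for such small shifts. Scaling each array by its median in place of quantile normalization moved the median of all genes to 0.34, and relative to it the members' median was 0.35, with 28 of 31 members above it. The split of all called genes was 96 higher and 66 lower under that scaling and 83 higher and 177 lower under quantile normalization.

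**Figure D1:**
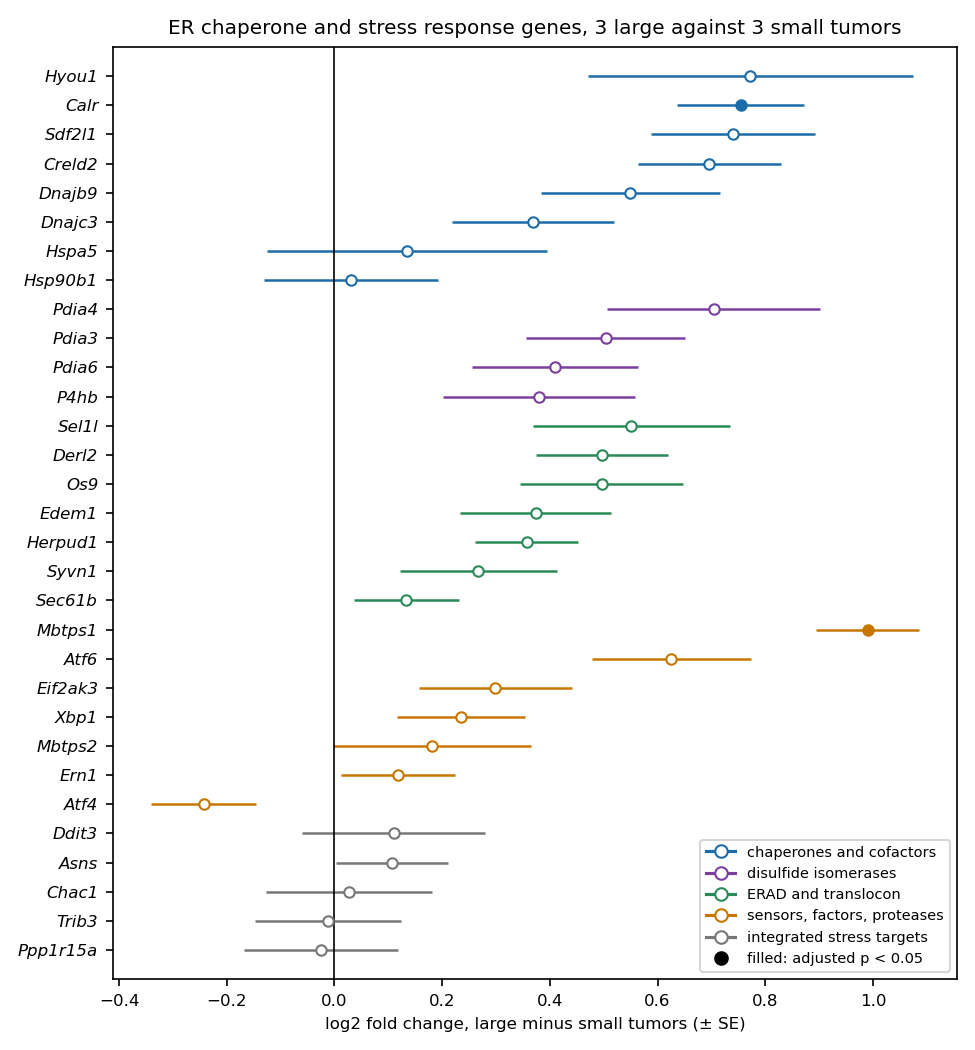
Log2 fold change of the 31 tested genes (large minus small tumors, x axis, 3 arrays per group), each with its standard error and coloured by role. Filled points mark the 2 genes with an adjusted p under 0.05, Calr and Mbtps1, and the 5 integrated stress targets lie between -0.024 and 0.11.

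The arrays themselves were not equal. The median signal was 117 to 128 on the large tumor arrays and 104 to 115 on the small tumor arrays, and small tumor 1 had the fewest detected probes, 17310 against 18331 to 19771 on the others. Small tumor 1 was the lowest of the 6 arrays for 18 of the 31 genes, and large tumor 3 was the highest for 18. Without small tumor 1, 28 of 31 genes were still positive, the median was 0.30, and the large tumors lay above the remaining small tumors for 19 genes (21.2% of all genes). Without large tumor 3, 30 of 31 were positive, the median was 0.27 and that count was 18 (19.6% of all genes).

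**Figure D2:**
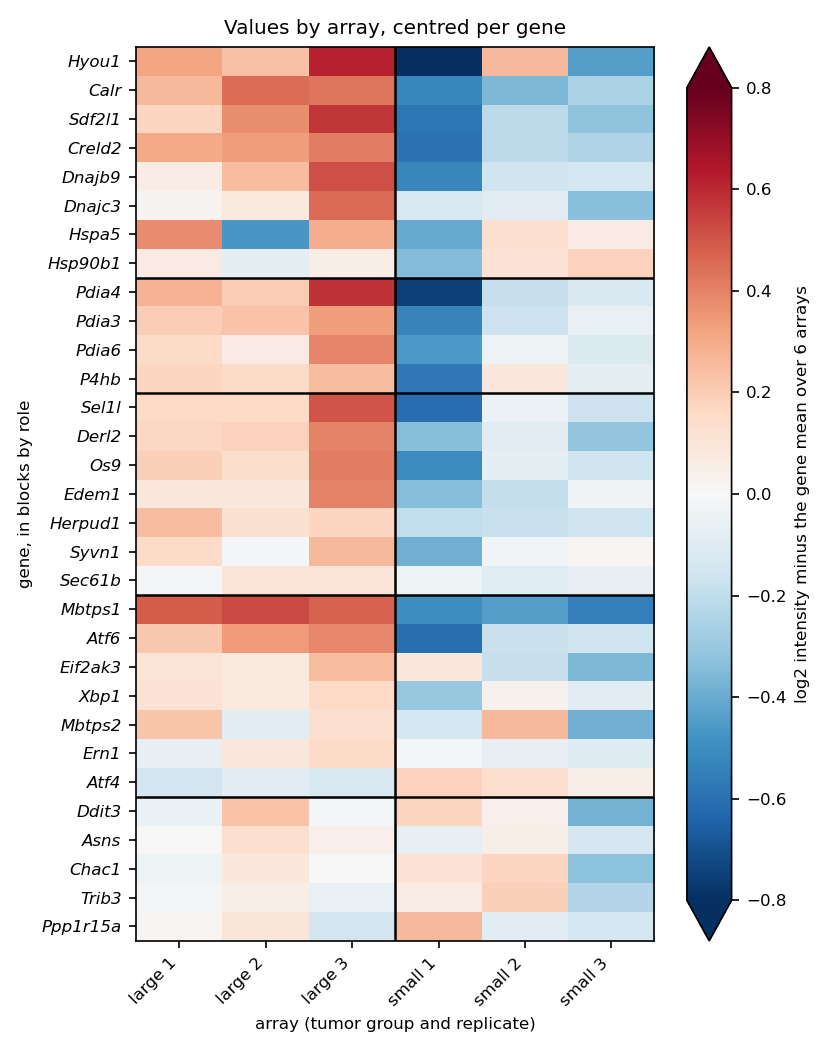
Log2 intensity of each tested gene (rows, in blocks by role) on each array (columns, large tumors 1 to 3 and then small tumors 1 to 3), minus the gene's mean over the 6 arrays; the colour scale ends at 0.8 in either direction. The large tumor columns are mostly positive and the small tumor columns mostly negative in the upper 3 blocks, with small tumor 1 the lowest of the 6 for 18 of the 31 genes, while the lowest block shows no such division.

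Among the sensors and activators, Mbtps1 differed most. It encodes the site-1 protease, which makes the first cut in ATF6 and in the sterol regulators SREBP, and its log2 intensity was 9.20, 9.24 and 9.19 in large tumors 1 to 3, against 8.22, 8.28 and 8.17 in small tumors 1 to 3. The large tumors lay close together, and all were above every small tumor by most of a log2 unit. The log2 fold change was 0.99 ± 0.095 (SE, n = 3 per group; adjusted p = 0.0161 by limma), a 1.99-fold rise. Its 2 other detected probes gave 0.74 ± 0.14 and 0.72 ± 0.11, and all 3 were called when every detected probe was tested on its own (adjusted p = 0.0244, 0.0444 and 0.0337). A further Mbtps1 probe was detected on 1 array and left out. The size of the difference hardly moved when an array was omitted (0.97 to 1.02), but the call was lost without large tumor 1 (adjusted p = 0.0587), large tumor 2 (0.0633), large tumor 3 (0.0784) or small tumor 3 (0.0557). In those 4 fits at most 29 genes of the whole array were called.

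The partner protease and the sensors gave smaller values. Mbtps2, the site-2 protease that makes the second cut, was at 0.18 ± 0.18 (adjusted p = 0.603), and its groups overlapped. Atf6, the membrane-bound factor that both proteases release, had log2 intensities of 5.75, 5.87 and 5.91 in large tumors 1 to 3, against 4.93, 5.35 and 5.37 in small tumors 1 to 3. The large tumors were all higher, and the log2 fold change of 0.63 ± 0.15 did not pass (adjusted p = 0.0801). This probe was near the detection limit, being detected on 2 of the 3 small tumor arrays, and the other Atf6 probe was at 0.28 ± 0.18 with overlapping groups. Xbp1, the factor activated by IRE1 splicing, was at 0.23 ± 0.12, with the large tumors all higher; the deposited signal does not separate its spliced form. Ern1, which encodes IRE1, was at 0.12 ± 0.11 and Eif2ak3, which encodes PERK, at 0.30 ± 0.14, both with overlapping groups.

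Atf4, the translation-controlled factor of the integrated stress response, was the one gene with all large tumors below all small ones. Its brightest probe read 12.20, 12.27 and 12.23 in large tumors 1 to 3, against 12.54, 12.49 and 12.40 in small tumors 1 to 3, a difference of -0.24 ± 0.097 (adjusted p = 0.204). Its second probe went the other way, at 0.39 ± 0.14 (adjusted p = 0.155 over all probes), with all large tumors above all small ones. The 2 probes of Atf4 therefore give no common direction, and with the mean of both the value was 0.072.

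The chaperones held the second called gene. Calr encodes calreticulin, the lectin chaperone that binds glycoproteins in the ER and stores calcium, and its log2 intensity was 9.46, 9.65 and 9.63 in large tumors 1 to 3, against 8.68, 8.84 and 8.95 in small tumors 1 to 3. The lowest large tumor was above the highest small one. The log2 fold change was 0.75 ± 0.12 (adjusted p = 0.0379), a 1.69-fold rise. It stayed between 0.68 and 0.82 whichever array was left out, and the call was lost in each of these 6 fits, with adjusted p-values of 0.0632, 0.145 and 0.13 without large tumors 1, 2 and 3 and of 0.0824, 0.053 and 0.106 without small tumors 1, 2 and 3.

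Close behind were secreted or soluble stress proteins. Creld2, a small disulfide-rich protein induced by ER stress, had log2 intensities of 10.84, 10.87 and 10.94 in large tumors 1 to 3, against 9.94, 10.32 and 10.29 in small tumors 1 to 3. Its groups were apart by more than the range within either, and the log2 fold change was 0.70 ± 0.13 (adjusted p = 0.0519), with its second probe at 0.47 ± 0.13. Sdf2l1, a cofactor of the chaperone cycle of BiP, read 9.78, 9.98 and 10.18 in large tumors 1 to 3, against 9.03, 9.40 and 9.28 in small tumors 1 to 3. Here too every large tumor was higher, at 0.74 ± 0.15 (adjusted p = 0.0605). Hyou1, an ER member of the large Hsp70-related chaperones, had log2 intensities of 7.05, 6.97 and 7.35 in large tumors 1 to 3. The difference was 0.77 ± 0.30 (adjusted p = 0.196), and the groups overlapped, with small tumors 1 and 3 at 5.77 and 6.30 and small tumor 2 level with the large ones.

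Of the J-domain cofactors that stimulate BiP, Dnajb9 was at 0.55 ± 0.17 (adjusted p = 0.125) and Dnajc3 at 0.37 ± 0.15 (adjusted p = 0.209), each with all large tumors above all small ones. The second Dnajb9 probe was at 0.068 ± 0.15, with overlapping groups. The central chaperones themselves did not separate. Hsp90b1, which encodes GRP94, had a log2 fold change of 0.031 ± 0.16 (adjusted p = 0.934), which was -0.13 without small tumor 1. Hspa5, which encodes BiP, read 5.64, 4.80 and 5.56 in large tumors 1 to 3, against 4.86, 5.40 and 5.33 in small tumors 1 to 3, and neither group was consistently higher. Its log2 fold change of 0.13 ± 0.26 (adjusted p = 0.804) rests on 1 dim probe, detected on 2 large and 2 small tumor arrays, and its standard error was more than that of Calr.

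Chaperone promoters are known for the ER stress response element, through which ATF6 and XBP1 act together with NF-Y, so the 300-base windows around the members' start sites (250 bases before to 50 after; RefSeq, build GRCm38.p6) were searched for it. A window was at hand for 32 of the 36 genes. The element, CCAAT and CCACG with 9 bases of any kind between them, on either strand, was present in 9 of these 32 genes and in 0.119% of all 32851 windows of that length. It lay in 6 of 9 chaperone genes, 1 of 4 isomerase genes and 2 of 8 degradation genes, and in none of the 6 sensor genes or the 5 integrated stress genes with a window. The matches of the tested genes are shown so that expression can be read beside them, 5′ to 3′ on the strand of the gene, with the matched stretch in capitals (CGTGG at the left end marks a match on the opposite strand).
Calr chr8:84847065-84847103, minus strand: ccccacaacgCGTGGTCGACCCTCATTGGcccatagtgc
Creld2 chr15:88819510-88819548, plus strand: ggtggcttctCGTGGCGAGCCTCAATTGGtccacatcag
Pdia6 chr12:17266481-17266519, plus strand: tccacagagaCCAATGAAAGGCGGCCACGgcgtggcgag
Dnajc3 chr14:118937817-118937855, plus strand: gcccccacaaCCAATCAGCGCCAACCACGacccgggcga
Syvn1 chr19:6046522-6046560, plus strand: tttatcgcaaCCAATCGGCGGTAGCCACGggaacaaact
Hspa5 chr2:34772015-34772053, plus strand: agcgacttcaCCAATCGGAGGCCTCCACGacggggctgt
Hsp90b1 chr10:86705628-86705666, minus strand: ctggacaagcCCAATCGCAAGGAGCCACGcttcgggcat
Hsp90b1 chr10:86705523-86705561, minus strand: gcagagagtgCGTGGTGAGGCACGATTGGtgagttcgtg

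The genes with this sequence differed in size of change. Calr, with its match at 162 to 144 bases before the start site, and Creld2, at 126 to 108 bases, had log2 fold changes of 0.75 and 0.70. Pdia6, Dnajc3 and Syvn1 had 0.41, 0.37 and 0.27, and Hsp90b1, the gene with 2 matches, had 0.031. Hspa5 had 0.13 at its 1 dim probe, which was detected on only 2 large and 2 small tumor arrays. Canx and Derl3, which were not tested, held the other matches. The shorter element TGACGTG (either strand), also bound by ATF6 and XBP1, was found in 1 member window, that of Hspa5, and in 2.01% of all windows. Mbtps1, with the largest difference of all members, held no match. The whole windows of the 2 called genes are given for comparison, with only the fixed letters of the element in capitals.
Calr chr8:84846882-84847181, minus strand: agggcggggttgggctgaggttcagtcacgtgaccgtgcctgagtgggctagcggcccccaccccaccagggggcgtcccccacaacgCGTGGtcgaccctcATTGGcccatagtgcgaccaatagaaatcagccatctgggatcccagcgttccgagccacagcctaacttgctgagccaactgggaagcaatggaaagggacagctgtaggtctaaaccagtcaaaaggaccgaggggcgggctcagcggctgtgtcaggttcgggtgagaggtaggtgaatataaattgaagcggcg
Mbtps1 chr8:119558712-119559011, minus strand: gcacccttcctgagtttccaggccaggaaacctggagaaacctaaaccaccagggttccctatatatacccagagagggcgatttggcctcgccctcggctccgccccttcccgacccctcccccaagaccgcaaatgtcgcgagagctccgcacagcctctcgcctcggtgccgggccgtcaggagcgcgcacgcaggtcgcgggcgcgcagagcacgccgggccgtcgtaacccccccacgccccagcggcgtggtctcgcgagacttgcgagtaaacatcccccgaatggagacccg

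The 4 disulfide isomerases all had higher means in large tumors, and 0 passed the limma test (3 were higher at an unadjusted p under 0.05, as were 12.3% of all genes). Pdia4, an isomerase of the ER chaperone complexes, had log2 intensities of 12.06, 11.99 and 12.36 in large tumors 1 to 3, against 11.04, 11.60 and 11.66 in small tumors 1 to 3. All large tumors were higher, and small tumor 1 lay well below the other small ones; the log2 fold change was 0.70 ± 0.20 (adjusted p = 0.11). Pdia3, also called ERp57, which works with calreticulin on glycoproteins, read 13.07, 13.11 and 13.21 in large tumors 1 to 3, against 12.34, 12.72 and 12.82 in small tumors 1 to 3, with a log2 fold change of 0.50 ± 0.15 (adjusted p = 0.119). Pdia6, an isomerase that also damps IRE1 signalling, read 8.18, 8.09 and 8.42 in large tumors 1 to 3, against 7.56, 7.98 and 7.91 in small tumors 1 to 3, a difference of 0.41 ± 0.15 (adjusted p = 0.184), and its second probe was at 0.29 ± 0.14. P4hb, the classical protein disulfide isomerase, was at 0.38 ± 0.18 (adjusted p = 0.261), and at 0.18 without small tumor 1. The large tumors were all above the small ones for each of the 4 (16.1% of all genes), although the margin was narrow for P4hb, whose lowest large tumor was at 14.16 and whose highest small tumor was at 14.09. Without small tumor 1 the isomerase median was 0.32, against 0.46 with it.

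In ER-associated degradation, 0 of 7 genes passed the limma test (5 were higher at an unadjusted p under 0.05, as were 12.3% of all genes) and 6 of 7 had all large tumors above all small ones (16.1% of all genes). Derl2, a derlin of the retrotranslocation channel, read 9.38, 9.40 and 9.61 in large tumors 1 to 3, against 8.88, 9.12 and 8.90 in small tumors 1 to 3, a difference of 0.50 ± 0.12 (adjusted p = 0.0862), and its second probe gave 0.40 ± 0.13. Herpud1, a membrane protein that recruits the ligase complex, read 12.65, 12.52 and 12.57 in large tumors 1 to 3, against 12.21, 12.22 and 12.24 in small tumors 1 to 3. Its small tumors were nearly identical and all below the large ones, with a log2 fold change of 0.36 ± 0.096 (adjusted p = 0.0984) and of 0.61 ± 0.14 at the second probe. Os9, a lectin that hands misfolded glycoproteins to the ligase, read 10.55, 10.51 and 10.78 in large tumors 1 to 3, against 9.86, 10.29 and 10.20 in small tumors 1 to 3, a difference of 0.50 ± 0.15 (adjusted p = 0.126).

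Sel1l, the scaffold of the HRD1 ligase, had 3 detected probes that differed in size. The brightest was at 0.55 ± 0.18, a dim one was called over all probes at 0.90 ± 0.16 (adjusted p = 0.0407), and the third was at 0.091 ± 0.12 with overlapping groups. Edem1, a mannosidase-like lectin, was at 0.37 ± 0.14 (adjusted p = 0.183). Syvn1, which encodes the HRD1 ligase itself, was at 0.27 ± 0.15 with overlapping groups, and Sec61b, a subunit of the translocation channel, at 0.13 ± 0.097. Herpud1 also held the related element of ATTGG and CCACG with 1 base between them (either strand), found in 2 of the 32 members and in 0.0365% of all windows, shown with the match in capitals.
Herpud1 chr8:94386367-94386397, plus strand: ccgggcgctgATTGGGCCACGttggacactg

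**Figure D3:**
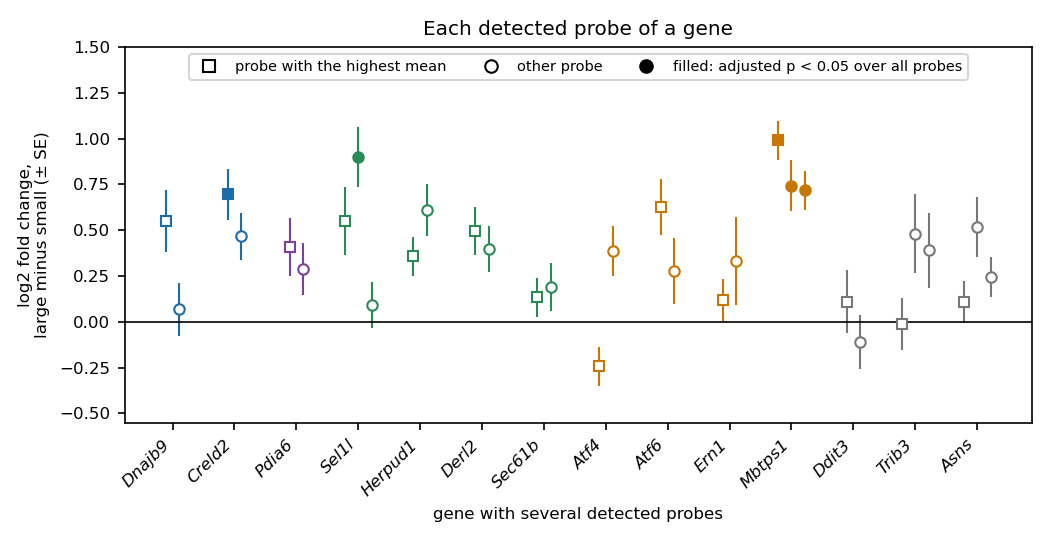
Log2 fold change with standard error of every detected probe of the 14 genes that had several (colours as in the plot of all members); squares mark the probe with the highest mean, which stands for the gene. All 3 Mbtps1 probes are filled (adjusted p under 0.05 over all detected probes), and the probes of Atf4, Ddit3 and Trib3 lie on both sides of 0.

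Across probes, 14 of the 31 genes had more than 1 detected probe, and in 11 of them all had the same sign. In Atf4, Ddit3 and Trib3 they did not; over all 3967 genes with several detected probes, signs differed in 39.8%. When each probe was tested on its own, 6 of the 49 member probes rose (1.28% of all 19120 probes) and 0 fell (1.64% of all probes). These were the 3 of Mbtps1 and 1 each of Calr, Creld2 and Sel1l.

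The integrated stress targets, which ATF4 and related factors induce when translation is restrained, had log2 fold changes close to 0 at the brightest probe of each gene. At these probes 0 of the 5 passed the limma test (0.789% of all genes were called higher and 1.68% lower). At an unadjusted p under 0.05 there were 0 (12.3% of all genes higher and 10.2% lower). The groups overlapped in all 5, while 16.1% of all genes lay wholly higher and 13.6% wholly lower. Against these shares, such counts in only 5 genes do not set them apart from other genes. The median of the 5 was -0.10 to 0.12 with 1 array left out. Asns, asparagine synthetase, read 12.16, 12.29 and 12.21 in large tumors 1 to 3, against 12.10, 12.21 and 12.03 in small tumors 1 to 3, a difference of 0.11 ± 0.10 (adjusted p = 0.584). Ddit3, which encodes the factor CHOP, read 9.66, 9.94 and 9.70 in large tumors 1 to 3, against 9.88, 9.76 and 9.34 in small tumors 1 to 3, at 0.11 ± 0.17 (adjusted p = 0.748), and its second probe was at -0.11 ± 0.15. Chac1, a glutathione-degrading enzyme, read 10.91, 11.03 and 10.95 in large tumors 1 to 3, against 11.06, 11.12 and 10.62 in small tumors 1 to 3, at 0.027 ± 0.15 (adjusted p = 0.94).

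Trib3, a pseudokinase that restrains ATF4 and CHOP, was at -0.012 ± 0.14, and Ppp1r15a, which encodes the phosphatase subunit GADD34 that restores translation, at -0.024 ± 0.14. For Trib3 the choice of probe mattered, since 2 dimmer probes gave 0.48 ± 0.22 and 0.39 ± 0.20. The other 2 probes of Asns, at 0.52 ± 0.17 (adjusted p = 0.128 over all probes, unadjusted 0.0158) and 0.25 ± 0.11 (adjusted p = 0.238), had all large tumors above all small ones. The difference between these genes and the chaperones was not tested. Standard errors at the brightest probes were 0.10 to 0.17, and differences much larger than these could still fail the test. With an error in that range, Creld2 at 0.70 ± 0.13 did not pass (adjusted p = 0.0519 by limma). The ATF4-type element TGATGNAA (either strand) was found in the windows of 3 of these 5 genes and of Herpud1, and in 3.97% of all windows; the matches are in capitals (CHOP's own window held none).
Chac1 chr2:119351039-119351066, plus strand: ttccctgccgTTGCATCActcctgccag
Asns chr6:7693215-7693242, minus strand: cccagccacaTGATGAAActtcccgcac
Trib3 chr2:152344029-152344056, minus strand: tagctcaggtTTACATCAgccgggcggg
Herpud1 chr8:94386307-94386334, plus strand: ccacggcgggTTGCATCAgcccgcaccc

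**Figure D4:**
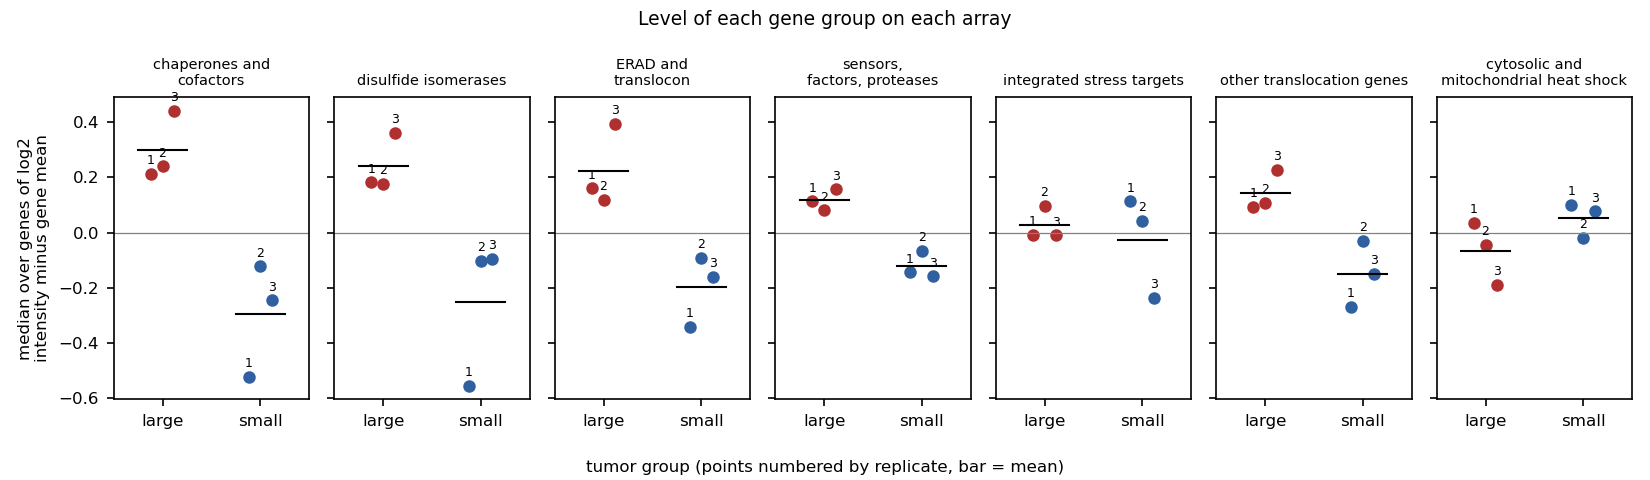
Median over the genes of a group of log2 intensity minus the gene's mean, for each array (points numbered by replicate; bars are means of 3 arrays), in the 5 roles and in 2 further gene lists. Large tumors lie above small tumors in the chaperone, isomerase, degradation, sensor and translocation panels, and the points of the integrated stress and heat shock panels overlap between groups.

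In 3 lists of further ER folding and secretory genes, most members had higher means in large tumors. Of 35 further folding genes tested, 33 were positive, with a median of 0.36. Of these 35, 3 rose (0.789% of all genes) and 0 fell (1.68% of all genes). Those that rose were Cnpy3, a cofactor for the folding of Toll-like receptors, at 0.82 ± 0.14 (adjusted p = 0.0415), Fkbp2, an ER prolyl isomerase, at 0.67 ± 0.12 (adjusted p = 0.047), and Pdia5, another disulfide isomerase, at 0.55 ± 0.10 (adjusted p = 0.0475). Of 30 further degradation genes 24 were positive, with a median of 0.20. Among these 1 rose (0.789% of all genes). It was Man1a2, an alpha-mannosidase that trims glycans, at 0.97 ± 0.17 (adjusted p = 0.0443 by limma). Of 24 further genes of the translocation channel, signal peptidase and signal recognition, 17 were positive and 7 negative, with a median of 0.33. By limma 0 were called, and 13 were higher at an unadjusted p under 0.05 (12.3% of all genes). All large tumors were above all small ones for 13 of the 24 (16.1% of all genes), and below them for 2 (13.6% of all genes). Those 2, Srp9 (-0.23 ± 0.11) and Srp68 (-0.15 ± 0.10), were named after their values were seen. The smallest p-values of the list were those of Tram2, at 0.56 ± 0.11 (adjusted p = 0.059), and Srprb, a subunit of the signal recognition receptor, at 0.91 ± 0.19 (adjusted p = 0.0616).

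Over all genes, 0.789% rose and 1.68% fell, and 12.3% were higher and 10.2% lower at an unadjusted p under 0.05 (limma). Among 17 further signalling genes, 10 were positive, 0 rose and 1 fell, with a median of 0.20. That median was not stable: it was 0.098 without small tumor 1, 0.12 without small tumor 2, 0.10 without large tumor 3, 0.011 with detection on all 6 arrays and 0.0065 with the mean of a gene's probes. The gene that fell was Eif2ak2, which encodes the interferon-induced kinase PKR, a relative of PERK that also acts on eIF2, at -0.75 ± 0.14 (adjusted p = 0.0477). Of 42 further integrated stress genes, 28 were positive and 0 were called (7 higher and 2 lower at an unadjusted p under 0.05), with a median of 0.11 (0.068 without large tumor 2), and the smallest p-values were those of Tars, threonyl-tRNA synthetase, at -0.63 ± 0.13 (adjusted p = 0.0616) and Sesn2, a stress-induced inhibitor of growth signalling, at 0.44 ± 0.11 (adjusted p = 0.0894). Fgf21, a hormone that ATF4 induces, had the widest difference of that list and was singled out after its values were seen. It read 8.60, 8.55 and 8.37 in large tumors 1 to 3, against 4.92, 7.98 and 6.06 in small tumors 1 to 3, so the large tumors were alike while the small ones ranged widely, and the difference of 2.19 ± 0.69 did not pass (adjusted p = 0.136). In the list of the sterol regulators that the Mbtps1 protease also cuts and their targets, 14 of 16 were positive and 0 were called (6 higher at an unadjusted p under 0.05), with a median of 0.39; Srebf1 was at 0.86 ± 0.25 (adjusted p = 0.114) and Insig2 at 0.45 ± 0.13 (adjusted p = 0.122). Without small tumor 1, 11 of the 16 were positive and the median was 0.21, and the list's median deviation on small tumor 2 (0.21) was above those on large tumors 1 (0.052) and 2 (0.13).

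Chaperones of the cytosol and mitochondria were set beside these. Of 27 tested, 5 were positive, 0 rose (0.789% of all genes) and 1 fell (1.68% of all genes). Their median was -0.08 (-0.021 without large tumor 3). Under median scaling of the arrays that median was 0.28, which is below the 0.34 of all genes. Hspb8, a small heat shock protein, fell by 1.03 ± 0.19 (adjusted p = 0.047), and Cryab, another one that is abundant in muscle, was at -0.71 ± 0.20 (adjusted p = 0.114). The difference between this list and the ER chaperones was not tested.

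Marker lists of the cell types that a tumor can hold were set beside these values. Of all 10523 genes, 5271 were negative, 0.789% were called higher and 1.68% lower. At an unadjusted p under 0.05 (limma), 12.3% of all genes were higher and 10.2% lower. Melanocyte markers were present: 17 of 20 symbols had a probe, and all 17 were detected. Of the 17 genes 14 were positive and 0 called (4 higher and 1 lower at an unadjusted p under 0.05). Their median was 0.091, with values from -0.46 to 0.88. All large tumors were above all small ones for 5 (16.1% of all genes) and below them for 3 (13.6% of all genes). The smallest p-values were those of Kit, at 0.74 ± 0.17, and Gpr143, at 0.56 ± 0.14. The list's summed level was 126853 to 132453 in large and 116613 to 122526 in small tumors (linear normalised intensity after removal of the offset). Skeletal muscle markers were lower in large tumors for 21 of 21 tested genes, 16 of them called, with a summed level of 17118 to 24278 in large and 50313 to 71670 in small tumors; Tnnt3 was at -2.20 ± 0.17 and Ckm at -2.39 ± 0.20. Interferon-gamma targets were negative in 18 of 18, 13 of them called, at 22819 to 29801 in large and 37532 to 60923 in small tumors, among them Psmb8 at -1.62 ± 0.13 and Psmb9 at -2.49 ± 0.26. T cell markers were negative in 8 of 9 (4 called; Cd3d -1.55, Zap70 -0.86), and their median deviation on an array was -0.63 to -0.48 in large and 0.22 to 0.69 in small tumors, with no overlap. Their summed level, 2383 to 2713 in large and 2152 to 2830 in small tumors, rests mainly on Cd8b1, the brightest and the one positive marker, whose mean log2 intensity was 11.26 in large and 11.01 in small tumors (difference 0.25 ± 0.14).

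Myeloid markers were negative in 16 of 16, 2 of them called (1.68% of all genes). All large tumors were below all small ones for 4 of the 16 (13.6% of all genes). The markers' summed level was 18040 to 24574 in large and 20265 to 31083 in small tumors, with Aif1 at -1.60 ± 0.25 and Ctss at -1.25 ± 0.23. Fibroblast markers gave 0 calls among 20 tested (11 positive, 1 higher and 2 lower at an unadjusted p under 0.05; Fbln1 0.51, Dpt -0.59), at 15728 to 24758 in large and 16022 to 20776 in small tumors. Of 21 symbols for B and plasma cells, which are rich in this machinery, only 4 were tested, 2 positive and 2 negative, and 0 were called (1 lower at an unadjusted p under 0.05), with a summed level of 152 to 217 in large and 128 to 180 in small tumors. The B cell markers Cd22 and Cd79b were at -0.48 ± 0.13 and -0.57 ± 0.25, and the plasma cell markers Mzb1 and Sdc1 at 0.25 ± 0.13 and 0.55 ± 0.40. Of 18 keratinocyte markers 6 were positive and 12 negative, and 0 were called by limma or had an unadjusted p under 0.05. Their values ran from -1.76 to 1.22, and the smallest p-values were those of Krt10 (-1.76 ± 2.46) and Krt15 (-0.63 ± 0.96). The keratinocyte markers varied most between arrays, at 853 to 85586 in large and 432 to 53959 in small tumors. Their median deviation was lowest in large tumor 3 (-2.78) and small tumor 1 (-2.96), which were at opposite ends for the ER genes, with member medians of 0.29 and -0.35. No symbol of these lists with a probe was undetected on all arrays. The part of the other lists in the results was not tested.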

How the data were processed

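RNA of 6 tumors, 3 large and 3 small, was measured on Illumina bead arrays after repeated linear amplification of 100 ng total RNA, per the labels' protocols, and read with GenomeStudio (version not stated), per the submitters' processing notes. The deposited signal, an average signal per the file headers, was taken as a linear intensity. Its lowest value was 84.2 to 98.4 per array, and it was treated as not background-corrected. A detection p-value per probe and array was deposited beside it, per the file headers. The authors' processed intensity table, made by a method not given in the sources used here, served as an alternative; as no array counts molecules, precision is limited by the number of arrays.

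Signals were background-corrected, quantile-normalised and log2-transformed with neqc (offset 16) of limma 3.58.1 in R 4.3.3. Probes detected at p under 0.05 on 3 or more arrays (19120 of 45281) were kept, 16256 of them with 1 symbol in the platform annotation, which covers the 20346 probes of the authors' table (17300 with 1 symbol, 11 with several, 3035 unnamed). The probe with the highest mean stood for a gene (10523 genes). Groups were compared with lmFit and eBayes, with Benjamini-Hochberg adjustment over all genes, and in a second fit over all probes. The test was checked on simulated data. No pair of arrays shared signals (0% equal).

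The members, lists and alternatives were chosen with earlier results of these data known. Values for every array are given for called members and the 3 smallest p-values of each role, and of other lists the called genes (up to 4) or the 2 smallest p-values are named. Alternatives were 3 other normalisations, another offset, the authors' table, 3 filters, 2 probe rules, another prior, array weights, a replicate block and each array left out in turn. Promoter windows were RefSeq's (GRCm38.p6).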

Additional observations from a re-analysis of the deposited data

How the results depend on the processing

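Of 587 recomputed fold changes of the 31 genes under 19 alternatives, 566 kept their sign, and 24 genes kept it in all of them; 11 values lost a call and 18 gained one. The members' median log2 fold change was 0.27 to 0.41 in all alternatives except median scaling (0.69, with all genes at 0.34). Members called higher, 2 at the settings reported, numbered 4 with offset 50 (147 of all genes higher), with detection on all 6 arrays (169), with detection on all 3 arrays of a group (177 higher, 279 lower) and with every probe on its own (222). They numbered 5 with quantile normalisation and no background correction (182 higher) and with array weights (256 higher, 318 lower), and 7 with a trended and robust prior (309 higher, 347 lower). Median scaling called 66 genes lower. Member probes called higher, 6 as reported, were 10 without background correction and under median scaling. They numbered 13 with the trended prior and 2 with no detection filter. Calls over all probes were not counted in these settings, so no share stands beside these probe counts.

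The labels do not say whether replicate numbers pair tumors. Deviations of same-numbered large and small tumors correlated at -0.55, -0.067 and -0.45 for numbers 1 to 3. These are deviations from means of 3 arrays and follow differences between whole arrays, so they cannot decide whether tumors were paired. With the replicate block 7 genes were higher and 102 lower, 1 member gene (Mbtps1) and 1 member probe rose, and Calr had an adjusted p of 0.0659. Leaving out 1 array gave 0 to 75 genes higher and 0 to 222 lower. Among the members, 0 to 1 genes and 0 to 4 probes were called higher, and calls over all probes were not counted. In these fits 10 to 15 members were higher at an unadjusted p under 0.05 (limma). Of all 10523 genes, 1593 to 2600 were under that p in either direction.

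The sign turned in genes with small differences, none called. Under median scaling Atf4, Trib3 and Ppp1r15a were at 0.19, 0.41 and 0.35; with the mean of probes Atf4, Ddit3 and Trib3 were at 0.072, -0.00036 and 0.29; and with array weights Hspa5, Hsp90b1, Trib3 and Ppp1r15a were at -0.11, -0.084, 0.061 and 0.072. With 1 array left out, Hspa5 ranged from -0.039 to 0.40, Hsp90b1 from -0.13 to 0.14, Ddit3 from -0.052 to 0.22, Trib3 from -0.13 to 0.081, Chac1 from -0.13 to 0.12 and Ppp1r15a from -0.10 to 0.099. The causes were not tested. Signal near background limits Hspa5, Atf6 and Mbtps2, and 3 arrays per group limit every value.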
